A study of Saccharomyces cerevisiae with 6 samples.

Results

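Transcript levels of 10 genes of thiamine (vitamin B1) and vitamin B6 metabolism were compared between budding yeast cells with a soybean transcription factor and cells with an empty vector. The 10 genes were chosen by name, with earlier results of these data known, out of 5449 genes tested on the array. They were THI2, THI3, PDC2, THI7, THI4, THI20, THI6, THI80, SNZ1 and SNO1. Each has 1 probe set in the annotation used here, and all 10 lay above the background level on all 6 arrays. The GmbHLHm1 cells, 3 arrays, were of strain 26972c and held the plasmid pYES3 with GmbHLHm1, a soybean basic helix-loop-helix (bHLH) gene also called SAT1, behind a promoter that galactose switches on. The control cells, 3 arrays, were of the same strain and held empty pYES3. Both groups therefore carried the mep1-1 and mep2∆ alleles of the ammonium permease genes and the ura- marker of the strain, with MEP3 listed as present. Before the experiment the cells of both groups had grown on 2% glucose with 0.1% proline, and they were sampled after 12 h in a minimal medium with 2% galactose and 1 mM ammonium. The labels do not say whether more than 1 transformant was used for each plasmid.

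Thiamine is made in yeast from a pyrimidine and a thiazole part, which are joined and then converted to thiamine diphosphate, the cofactor of pyruvate decarboxylase, transketolase and the 2-oxoacid dehydrogenases. Cells can also take thiamine up through a plasma membrane carrier. When thiamine is scarce, the synthesis and uptake genes are switched on together by Thi2, Thi3 and Pdc2, and thiamine diphosphate itself acts as the signal that keeps them off. Vitamin B6 is made as pyridoxal phosphate by a synthase of Snz and Sno subunits, and pyridoxal phosphate is the cofactor of aminotransferases and many other enzymes of amino acid metabolism. In yeast the vitamin B6 route also feeds the pyrimidine part of thiamine, which ties the pathways together.

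The values are intensities made by the authors with RMA, and changes are given as log2 GmbHLHm1 over empty vector with the moderated standard error (SE) of limma. A gene is said to have risen or fallen where limma's two-sided test gave an adjusted p under 0.05, with Benjamini-Hochberg adjustment over the 5449 genes. The median log2 intensity of the tested genes ranged from 10.32 to 10.37 across arrays. The background level, the 95th percentile of 1746 probe sets with no S. cerevisiae gene, was 23.2 to 26.9 in intensity. The deleted MEP2 lay below it on all 6 arrays. URA3, also looked at as a strain check, lay above it on all 6 arrays. It rose by 1.35 ± 0.22 log2 units (SE; adjusted p = 0.0105) in GmbHLHm1 cells, and the cause was not tested. The other strain checks, MEP3 and MEP1, lay above background on all 6 arrays and also differed between the groups. MEP3 rose by 0.91 ± 0.16 (SE; adjusted p = 0.0138) and MEP1 fell by 0.46 ± 0.08 (SE; adjusted p = 0.0109). Their causes were not tested either. Ribosomal RNA controls (16 probe sets for 18S or 25S) had a median log2 change of -1.01, lower on the GmbHLHm1 arrays, and their part in the results was not tested. The ACT1 controls for the 3′ and 5′ ends differed by 0.51 to 0.595 log2 units on the GmbHLHm1 arrays and by 0.572 to 0.616 on the empty vector arrays, so this measure of RNA integrity overlapped between the groups. The number of arrays, 3 in each group, limits the precision. Per the labels' protocol the replicate tubes were inoculated from starter cultures, so the p-values cover only the spread among these tubes, which may be technical.

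Of the 10 genes, 3 rose, THI2, THI7 and THI20, and 1 fell, SNO1. THI2 rose 2.16-fold, THI7 1.72-fold and THI20 1.29-fold in GmbHLHm1 cells, and SNO1 stood at 0.672 of its empty vector level. In bulk cultures a lower level in every cell and fewer cells with the transcript cannot be told apart. The other 6, THI3, PDC2, THI4, THI6, THI80 and SNZ1, did not pass the test. Over all tested genes 12.1% passed, 7.45% higher and 4.64% lower. That split depends on the scaling, since 406 genes higher and 253 lower became 331 and 332 after quantile normalization of the tested genes; the members' split of 3 and 1 was the same there and became 3 and 2 with median centring, where SNZ1 passed (adjusted p = 0.0457). The median log2 change was 0.04 over the 10 genes and 0.02 over all tested genes, with 6 of the 10 changes positive and 4 negative. The groups did not overlap for 7 of the 10, 4 higher and 3 lower in GmbHLHm1 cells, against 33.2% of all tested genes, 19.3% higher and 13.9% lower. Without empty vector replicate 1 or without empty vector replicate 3 the count of 4 became 2 in each case, THI2 and THI7.

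**Figure D1:**
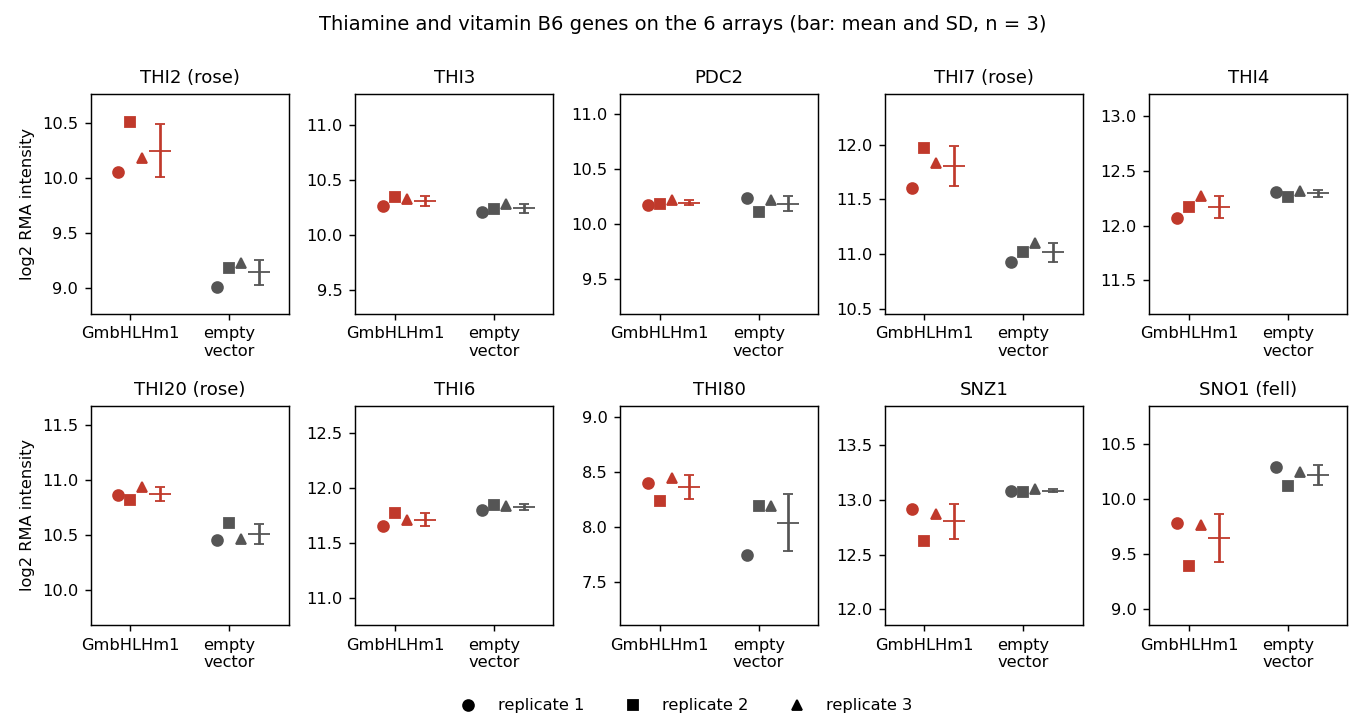
Log2 RMA intensity (vertical axis, each panel spanning the same 2 log2 units) of the 10 genes on the 3 GmbHLHm1 arrays (left, red) and the 3 empty vector arrays (right, grey); symbols mark the replicate, bars the mean and SD (n = 3). THI2 and THI7 lie clearly higher in GmbHLHm1 cells, THI20 slightly higher and SNO1 lower, while PDC2, THI3 and THI4 overlap between the groups.

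The regulators were examined first. THI2 encodes a zinc finger activator of the thiamine genes, and the gene table gives PHO6 as its synonym. Its intensity was 1063, 1464 and 1162 on GmbHLHm1 arrays 1, 2 and 3, against 516, 581 and 599 on the empty vector arrays. The lowest GmbHLHm1 array lay 0.83 log2 units above the highest empty vector array. The log2 change was 1.11 ± 0.12 (SE; adjusted p = 0.00176), rank 44 among the rises of all 5449 genes and the largest change among the 10. It also passed whichever of the 6 arrays was left out, with a log2 change between 0.98 and 1.21 and an adjusted p of up to 0.0117.

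THI3 encodes a protein related to the pyruvate decarboxylases that binds thiamine diphosphate and acts with Thi2 and Pdc2. Its intensity was 1229, 1304 and 1290 in GmbHLHm1 cells, against 1184, 1207 and 1249 in empty vector cells, and the groups overlapped. The log2 difference was 0.07 ± 0.05 (SE; adjusted p = 0.393), with a 95% interval from -0.04 to 0.18. PDC2 encodes the DNA-binding partner, which is also needed for expression of the pyruvate decarboxylase genes. It was measured at 1155, 1162 and 1194 in GmbHLHm1 cells, against 1204, 1104 and 1187 in empty vector cells. The empty vector values enclosed all 3 GmbHLHm1 values. The difference of 0.01 ± 0.05 (SE; adjusted p = 0.946) had an interval from -0.11 to 0.13, and its sign turned under some alternatives, among them quantile normalization (-0.02) and the fit without empty vector replicate 2 (-0.03). Of the 3 regulator genes, THI2 was thus the one whose transcript passed the test.

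THI7 encodes the high-affinity thiamine carrier of the plasma membrane. Its intensity was 3121, 4006 and 3635 on the GmbHLHm1 arrays, against 1955, 2073 and 2197 on the empty vector arrays. The groups were separated by 0.51 log2 units, and GmbHLHm1 replicate 2 was the highest array, as it was for THI2. The log2 change was 0.78 ± 0.10 (SE; adjusted p = 0.00277). It passed without any 1 array, at a log2 change of 0.70 to 0.88 and an adjusted p of up to 0.0188.

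The synthesis genes differed among themselves. THI4 makes the thiazole part and is among the most strongly thiamine-regulated genes of yeast. Its intensity was 4287, 4602 and 4923 in GmbHLHm1 cells, against 5064, 4895 and 5106 in empty vector cells, so that the groups overlapped by a single array. The log2 difference was -0.13 ± 0.06 (SE; adjusted p = 0.23), and its interval from -0.27 to 0.01 does not include a rise of the size seen for THI7 or THI2. THI20 encodes a kinase that phosphorylates the pyrimidine part, joined to a domain that degrades thiamine. It was measured at 1867, 1801 and 1963 in GmbHLHm1 cells, against 1399, 1561 and 1407 in empty vector cells, with no overlap. The log2 change was 0.37 ± 0.06 (SE; adjusted p = 0.011). Without empty vector replicate 1 it was 0.34 with adjusted p = 0.0599, and without empty vector replicate 3 also 0.34, with adjusted p = 0.0559. The call was thus lost in both fits while the log2 change moved little. All tested genes past the test went down to 251 and 293 in the same fits, from 659 with all arrays.

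THI6 encodes the enzyme that joins the pyrimidine and thiazole parts. Its intensity was 3212, 3494 and 3348 on the GmbHLHm1 arrays, against 3560, 3672 and 3662 on the empty vector arrays. The groups did not overlap, but the log2 difference of -0.12 ± 0.05 (SE) did not pass (adjusted p = 0.181). THI80 encodes thiamine pyrophosphokinase, which makes the diphosphate. It was measured at 338, 302 and 348 in GmbHLHm1 cells, against 214, 291 and 292 in empty vector cells. All GmbHLHm1 arrays were higher, yet empty vector replicate 1 lay far below the other two and the difference of 0.32 ± 0.13 log2 units (SE) did not pass (adjusted p = 0.159). Without empty vector replicate 1 the difference was 0.17.

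The vitamin B6 pair lay lower in GmbHLHm1 cells. SNO1 encodes the glutaminase subunit and SNZ1 the synthase subunit of pyridoxal phosphate synthase, and they are adjacent genes on chromosome XIII, on opposite strands. The intensity of SNO1 was 879, 674 and 873 in GmbHLHm1 cells, against 1255, 1111 and 1220.5 in empty vector cells, with a gap of 0.34 log2 units between the groups. It fell by 0.57 ± 0.11 (SE; adjusted p = 0.0182) on the log2 scale. Without empty vector replicate 1 the change was -0.54 with adjusted p = 0.0876, and without empty vector replicate 3 it was -0.56 with adjusted p = 0.0718.

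SNZ1 was measured at 7733, 6302 and 7477 on the GmbHLHm1 arrays, against 8655, 8620 and 8751 on the empty vector arrays. Every GmbHLHm1 value was below every empty vector value. The log2 difference was -0.28 ± 0.08 (SE; adjusted p = 0.0666), and the adjusted p was under the threshold in 5 of 14 alternatives, among them the fits without GmbHLHm1 replicate 1 (log2 change -0.34, adjusted p = 0.0364) and without GmbHLHm1 replicate 2 (-0.19, adjusted p = 0.0455). GmbHLHm1 replicate 2 was the lowest of its group for both genes, and the empty vector arrays of SNZ1 were close together, with an SD of 0.01 log2 units, against 0.16 in GmbHLHm1 cells (n = 3 each). The genes next to the pair, MTG1 beside SNZ1 and CTF13 beside SNO1, had log2 differences of 0.12 (adjusted p = 0.239) and -0.14 (adjusted p = 0.353). Across the other members' neighbours that were tested, none passed; GPM3, next to THI20, had the largest difference among them, 0.35 (adjusted p = 0.0864).

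**Figure D2:**
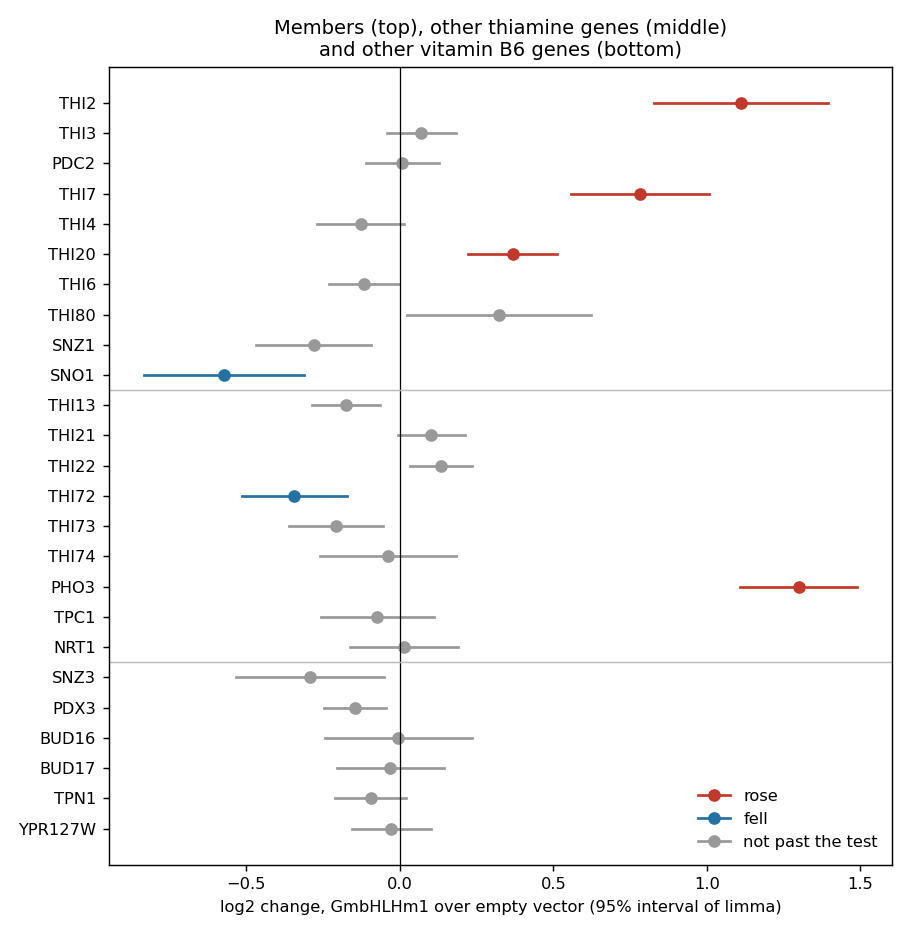
Log2 change, GmbHLHm1 over empty vector (horizontal axis), with the 95% interval of limma for the 10 members (top), 9 other thiamine genes (middle) and 6 other vitamin B6 genes (bottom; SNO3, below background, is not drawn). THI2, THI7 and PHO3 have the intervals farthest to the right, from 0.56 upward, SNO1 has the one farthest to the left, and the genes in grey did not pass the test.

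The spread within groups was uneven. For 7 of the 10 genes the SD over the GmbHLHm1 arrays was the larger one, and the median SD of the members was 0.104 log2 units in GmbHLHm1 cells and 0.0757 in empty vector cells (n = 3 arrays each). Over all tested genes the median SDs were 0.0875 in GmbHLHm1 cells and 0.0502 in empty vector cells. GmbHLHm1 replicate 2 was the highest array of its group for 4 members, THI2, THI3, THI6 and THI7, and the lowest for 4 others, THI20, THI80, SNZ1 and SNO1. Over the 6 arrays the profile of THI2 was most like those of OST4, DAN1, TIR3, LSB5 and STR3 among all tested genes, with Pearson r from 0.997 to 0.998. OST4 encodes a subunit of oligosaccharyltransferase, DAN1 and TIR3 cell wall mannoproteins, LSB5 a protein of endocytosis and STR3 a cystathionine beta-lyase. These r are descriptions over arrays of 2 separated groups, and 216 genes had an r above 0.95 with THI2.

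The other genes of the thiamine pathway were then described from a list of 12, of which 9 were tested; the annotation used here names no probe set for THI5, THI11 or THI12. Of the 9, PHO3 rose, THI72 fell and 7 did not pass, which is 22.2% called against 12.1% of all tested genes, with a median log2 change of -0.04. The list was chosen with earlier results of these data known. PHO3 encodes a periplasmic acid phosphatase that thiamine represses and that frees thiamine from its phosphates. Its intensity was 1435, 1641 and 1674 in GmbHLHm1 cells, against 596, 642 and 692 in empty vector cells. It rose 2.46-fold, a log2 change of 1.30 ± 0.08 (SE; adjusted p = 0.000149), and passed in each fit without 1 array. PHO3 has a close sequence relative beside it, PHO5, the phosphate-repressed acid phosphatase, looked up after these values were seen. PHO5 rose by 1.56 ± 0.04 log2 units (SE; adjusted p = 3.15e-06). PHO11, another acid phosphatase gene looked up after the values were seen, rose by 1.15 ± 0.06 (SE; adjusted p = 3.55e-05). Whether transcripts of PHO5 or PHO11 also bind the PHO3 probes was not tested.

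The sequence relatives of the members were measured as well. THI72, a carrier gene of the THI7 family, was measured at 305, 361 and 339 in GmbHLHm1 cells, against 444, 423 and 406 in empty vector cells. It fell by 0.34 ± 0.07 (SE; adjusted p = 0.025), a call lost without GmbHLHm1 replicate 3 (adjusted p = 0.0627) or without empty vector replicate 1, 2 or 3 (adjusted p = 0.111, 0.0884 and 0.0632). NRT1, the nicotinamide riboside carrier gene of the same family, had a log2 difference of 0.01 ± 0.07 (SE; adjusted p = 0.94). The relatives of THI20, THI21 and THI22, had differences of 0.10 ± 0.05 and 0.14 ± 0.04 (SE; adjusted p = 0.214 and 0.0918).

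THI13 makes the pyrimidine part and stands here for a family of near-identical genes at chromosome ends, since its probe set is of the type that matches several transcripts. Its intensity was 5716, 6120 and 6016 in GmbHLHm1 cells, against 6757, 6595 and 6797 in empty vector cells. The log2 difference of -0.18 ± 0.05 (SE) did not pass (adjusted p = 0.0549). The means of THI4 and THI13 were thus slightly lower in GmbHLHm1 cells, without passing the test, and the groups overlapped for THI4. THI20, for the kinase of the pyrimidine part, rose on the same arrays. The differences of its relatives THI21 and THI22 were positive without passing. THI2, THI7 and PHO3 also rose there, and binding of PHO5 or PHO11 transcripts to the PHO3 probes was not tested.

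Differences between the changes of 6 pairs of genes are given as a description, since the pairs were chosen after the values were seen. A two-sided exact permutation over the 6 arrays gave p = 0.1 for each pair. That is the smallest p that 3 against 3 arrays allow, so the permutation cannot decide. The change of THI7 exceeded that of THI72 by 1.13 log2 units and that of NRT1 by 0.77, and the change of THI2 exceeded that of THI4 by 1.24. The change of THI20 exceeded those of THI21 and THI22 by 0.27 and 0.23, and SNO1 minus SNZ1 gave -0.29.

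Of 9 other vitamin B6 genes 7 were tested, and none rose or fell by limma's test, with a median log2 change of -0.03. At an unadjusted p under 0.05 there were 2 of the 7, against 26.9% of all tested genes. The annotation used here names no probe set for SNZ2 or SNO2. Their relatives SNZ3 and SNO3 have probe sets of the type that matches several transcripts. SNZ3 lay just above background, with a log2 difference of -0.29 ± 0.10 (SE; adjusted p = 0.117). SNO3 was below background on every array, so its fold is left out, though SNO3 is counted among the 7 and in their median. PDX3, the pyridoxine phosphate oxidase gene, had a difference of -0.15 ± 0.04 (SE; adjusted p = 0.0775). TPN1, the pyridoxine permease gene, had -0.09 ± 0.05 (SE; adjusted p = 0.268).

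The enzymes that use the cofactors were listed as well. Of 10 genes for enzymes with thiamine diphosphate 1 fell, PDC5, and none rose by limma's test, a share near the 12.1% of all tested genes. An unadjusted p under 0.05 was found for 5 of the 10 and for 26.9% of all tested genes, and the median log2 change of the 10 was -0.06. PDC5 encodes a minor pyruvate decarboxylase that is known to be induced when thiamine is scarce. It was measured at 579, 609 and 633 in GmbHLHm1 cells, against 717, 686 and 700.4 in empty vector cells. It fell by 0.21 ± 0.05 (SE; adjusted p = 0.04), near the threshold: it passed in 1 of the 6 fits without 1 array, that without GmbHLHm1 replicate 3, and its adjusted p reached 0.16 without empty vector replicate 1. The main pyruvate decarboxylase gene PDC1 had a difference of -0.07 ± 0.04 (SE; adjusted p = 0.349), and the transketolase gene TKL1 one of 0.32 ± 0.15 (SE; adjusted p = 0.223).

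Of 31 genes for enzymes with pyridoxal phosphate 7 rose and 4 fell, 35.5% against 12.1% of all tested genes, with a median log2 change of -0.01. This list, like the other related lists, was chosen with earlier results of these data known, so its share is a description and not a test of enrichment. The 4 with the largest changes all rose and passed in each fit without 1 array. ARO9, an aromatic aminotransferase gene, was measured at 565, 700.1 and 628 in GmbHLHm1 cells, against 252, 296 and 341 in empty vector cells, a log2 change of 1.09 ± 0.12 (SE; adjusted p = 0.00198). AAT1, the mitochondrial aspartate aminotransferase gene, rose by 0.60, STR3 by 0.58 and SPE1, the ornithine decarboxylase gene, by 0.48. The other 3 that rose, also looked up after the values were seen, were GLY1, threonine aldolase, by 0.46, CAR2, ornithine aminotransferase, by 0.41 and GAD1, glutamate decarboxylase, by 0.28. GLY1 lost the call without GmbHLHm1 replicate 2 or 3 or any 1 empty vector array, and CAR2 without GmbHLHm1 replicate 3 or any 1 empty vector array, each with an adjusted p of up to 0.101, and GAD1 kept it. The 4 that fell, looked up after the values were seen, were CYS4, cystathionine beta-synthase, by 0.38, ILV1, threonine deaminase, by 0.35, SER1, phosphoserine aminotransferase, by 0.25 and CHA1, serine deaminase, by 0.22. ILV1, SER1 and CHA1 lost the call when any 1 of the empty vector arrays was left out, with an adjusted p of up to 0.111, 0.113 and 0.0822, and CYS4 kept it.

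Across the 4 related lists together 57 genes were tested and 14 passed, 8 higher and 6 lower, where 12.1% of all tested genes passed, 7.45% higher and 4.64% lower. The 14 were reduced to 7, 8 and 7 when empty vector replicate 1, 2 or 3 was left out, with 6 higher each time and 1, 2 and 1 lower. All tested genes past the test also went down in these fits, to 251, 341 and 293 against 659 with all arrays.

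**Figure D3:**
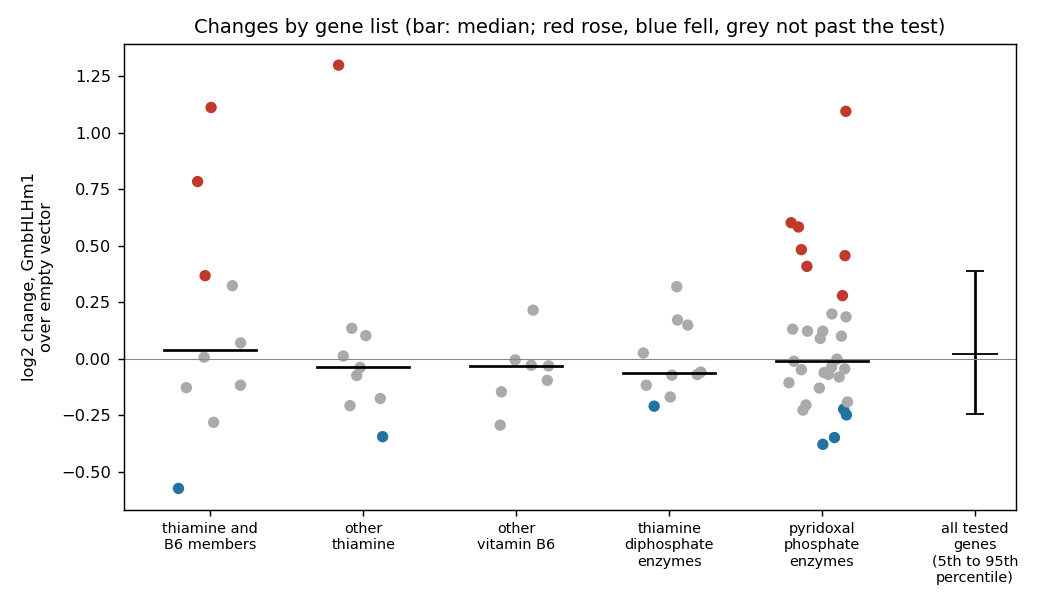
Log2 change, GmbHLHm1 over empty vector (vertical axis), of each gene in the member list and the 4 related lists. Each point is a gene, the black bar the list's median, red and blue points rose and fell. SNO3, below background, is drawn here and counted in the median of the other vitamin B6 genes. At the right are the median and the 5th to 95th percentile of all tested genes (-0.24 to 0.39); the lists' medians lie between -0.06 and 0.04, and THI2, PHO3 and ARO9 are the highest points.

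**Figure D4:**
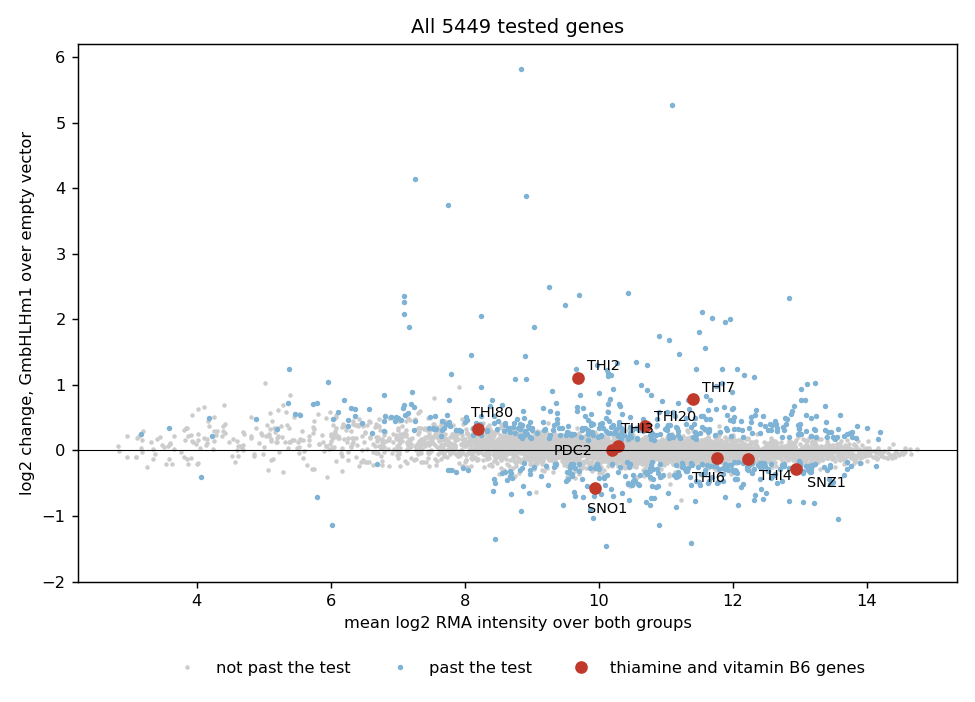
Log2 change (vertical axis) against mean log2 RMA intensity (horizontal axis) of all 5449 tested genes, with the 10 members in red. THI2 and THI7 stand among the higher changes, at log2 changes of 1.11 and 0.78. In mean intensity THI2 lies below the middle of the tested genes (percentile 34.8) and THI7 above it (percentile 73.2). The other members lie between log2 changes of -0.57 and 0.37.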

How the data were processed

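RNA of 6 yeast cultures, 3 per group, was measured on Affymetrix yeast expression arrays. The authors deposited RMA intensities, per the submitters' processing notes; the software version is not given in the sources used here, and that they are linear, not log, was read from the values. RMA makes the arrays' distributions alike, so a shift common to all transcripts is hidden. Values were converted to log2 here. Of 10928 probe sets 5498 matched an S. cerevisiae gene by identifier (gene table of assembly R64, used for names and neighbours only), and per gene the probe set with the highest mean was kept, which gave 5449 genes.

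The test was that of limma 3.58.1 under R 4.3.3 (eBayes after lmFit, group only, no filter on dim probe sets). On simulated data of 5449 genes, with 200 changed in each of 5 draws, the fit called 77.8% of genes changed by 0.5 log2 units, 98% of those changed by 1 and 0.122% of unchanged genes. The simulated noise was normal, independent between genes and of the same SD in both groups. On the arrays the median SDs were 0.0875 in GmbHLHm1 cells and 0.0502 in empty vector cells, so these rates may not hold for the data. Figures were drawn with matplotlib 3.10.9. The members, the related lists, the alternatives and the naming rule were chosen with earlier results of these data known. The rule named all members, their relatives, up to 4 changed genes per related list and the 5 genes most like the member with the largest change. A planned search of promoter sequences was not run, and promoters are not analysed here.

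Groups were taken from the sample titles. Other settings tried were array weights, leaving out each array, median centring or quantile normalization, dropping dim probe sets, a robust prior with trend, averaging a gene's probe sets, testing every probe set and a block for the replicate number.

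The labels give no shared day or batch for same-numbered arrays, so no pairing was used.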

Additional observations from a re-analysis of the deposited data

How the results depend on the processing

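With 3 arrays per group, several calls near the threshold were lost without a single array. THI2, THI7 and PHO3 passed under all 14 alternatives, THI20 and SNO1 under 12 of 14 each, and THI3, THI4, THI6, THI80 and PDC2 passed under none. The direction stayed the same under all of them for the members other than PDC2. The log2 difference of PDC2, 0.0075, lay far below its SE of 0.05 and changed sign to -0.0176 with quantile normalization and -0.0186 with median centring; without 1 array at a time it ran from -0.0309 to 0.0319, negative without GmbHLHm1 replicate 3 or empty vector replicate 2. Without 1 array at a time, 2 to 5 members passed (4 with all arrays), 251 to 723 genes in all (659) and 7 to 16 genes of the related lists (14).

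With all probe sets tested, 353 of the 5449 genes and 7 related genes passed. Both the adjustment and the variance prior change in that fit, and their parts were not separated. With a trend and robust prior 23 related genes passed; the cause was not tested. With the replicate number as a block 4 members, 427 genes in all and 9 related genes passed; the fit has fewer residual degrees of freedom. The deviations of same-numbered arrays from their group means correlated at -0.0652, -0.0818 and 0.141 across genes for replicates 1, 2 and 3. Between arrays of unlike number the correlations ran from -0.142 to 0.185. With 3 arrays per group such values cannot decide whether same-numbered cultures shared a day or a starter.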
